A study of Mus musculus with 30 samples.

Results

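The renin-angiotensin system was followed through 8 of the 41549 genes in the expression table, taken by symbol: Agt, Ren1, Ace, Anpep, Enpep, Agtr1a, Agtrap and Atp6ap2. All 8 symbols were found, each once. The genes were measured in inguinal white adipose tissue (iWAT, the subcutaneous fat of the groin), interscapular brown adipose tissue (iBAT, the heat-producing fat between the shoulder blades) and liver. The mice were 5 LFABP-/- males, which lack the liver fatty acid-binding protein gene (Fabp1) in the whole body, and 5 WT males. Both genotypes were on a C57Bl/6J background, were 2 months old when the diet began, ate a diet with 45% of energy as fat for 12 weeks and were fasted for 4 h before collection. The same 10 mice gave all 3 tissues, so there were 30 libraries in 6 groups of 5. All groups ate the same diet, so its effect was not measured. Fabp1 is normally active in hepatocytes and enterocytes and little in fat cells.

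Angiotensinogen (Agt) is the protein from which all angiotensins are cut. It is secreted mainly by hepatocytes and also by adipocytes. Renin, made by the kidney and encoded by Ren1, releases angiotensin I, and angiotensin-converting enzyme (Ace), an enzyme of the endothelial surface, trims it to angiotensin II, which raises blood pressure through the receptor Agtr1a. Aminopeptidases then shorten angiotensin II stepwise, Enpep (aminopeptidase A) first and Anpep (aminopeptidase N) next. Agtrap binds the tail of the receptor and promotes its internalization, and Atp6ap2, the prorenin receptor, is also an accessory subunit of the vacuolar proton pump. In fat, a local renin-angiotensin system is known to act on adipocyte growth and on inflammation.

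The promoters of Agt, Ace and Anpep are shown because these are the precursor and a pair of its processing enzymes, and none of them had an overlap between genotypes in iWAT. Each window runs from 250 bases before to 50 bases after the transcription start, 5′ to 3′ on the strand of the gene, in RefSeq on GRCm38.p6. Capitals mark 3 motifs searched on both strands. The TATA box motif was written as TATAAA and appears as TTTATA where it lies on the other strand. The CCAAT motif marks the CCAAT box, and the motif of GC boxes was written as GGGCGG.
Agt, chr8:124569657-124569956, minus strand: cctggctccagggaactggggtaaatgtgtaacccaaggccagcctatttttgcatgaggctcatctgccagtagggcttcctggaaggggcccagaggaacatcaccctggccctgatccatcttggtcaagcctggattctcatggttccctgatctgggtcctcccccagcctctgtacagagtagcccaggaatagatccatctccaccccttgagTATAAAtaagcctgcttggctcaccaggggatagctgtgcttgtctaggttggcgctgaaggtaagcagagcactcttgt
Ace, chr11:105967698-105967997, plus strand: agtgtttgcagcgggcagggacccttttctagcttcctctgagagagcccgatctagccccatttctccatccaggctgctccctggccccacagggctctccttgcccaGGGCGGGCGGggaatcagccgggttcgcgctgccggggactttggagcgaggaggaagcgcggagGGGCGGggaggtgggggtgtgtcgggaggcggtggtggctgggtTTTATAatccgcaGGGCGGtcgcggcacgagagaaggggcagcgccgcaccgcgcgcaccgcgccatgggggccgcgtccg
Anpep, chr7:79848161-79848460, minus strand: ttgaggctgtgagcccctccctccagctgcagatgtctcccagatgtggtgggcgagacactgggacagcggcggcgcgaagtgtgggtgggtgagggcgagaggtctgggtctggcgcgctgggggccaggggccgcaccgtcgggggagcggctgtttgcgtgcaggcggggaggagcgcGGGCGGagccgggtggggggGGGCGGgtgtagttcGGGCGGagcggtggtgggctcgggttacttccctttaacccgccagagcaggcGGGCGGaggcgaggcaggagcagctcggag
The Agt window held 1 TATAAA, its first base at position -30 from the start. In Ace a TATAAA lay on the other strand at position -31, with 4 GGGCGG around it, 2 of which overlap in the first run of capitals. Anpep had 4 GGGCGG and no TATAAA, and 72.3% of its bases were G or C, against a median of 52.7% over all 32851 windows. RefSeq gave 8 windows for 7 of the members. TATAAA occurred in 4 of the 8, against 13.6% of all windows, GGGCGG in 4 (35.7% of all windows) and CCAAT in 3 (37.4%). A match is a description of the letters only.

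The columns of the table are headed RPKM, but the values of each library sum to between 999967.3 and 999996.4, so they are on the TPM scale, which counts transcripts relative to all others in the library, rounded to 1 decimal. Depth is unknown and no counting error could be given. Fabp1, the deleted gene, was 0.2 to 51.8 in LFABP-/- livers and 9165.5 to 12697.6 in WT livers, as labelled. In fat, 4 libraries went against their label. In the library labelled LFABP-/- iWAT replicate 1, Fabp1 was 196.1, against 0.2 to 0.9 in the other 4 LFABP-/- and 1.9 to 23.9 in WT iWAT. That is 1.67% of the WT liver mean, beside a hepatocyte marker share of 1.858% in the same library. In the libraries labelled LFABP-/- iBAT replicates 3, 4 and 5 it was 21.2, 15 and 13.1, against 0.4 and 2 in replicates 1 and 2 and 0.2 to 8.7 in WT iBAT. The source of this Fabp1 was not tested, and the results that rest on these libraries are given with and without them, a choice made after seeing the data. The tissue labels held: brown adipocyte markers summed to between 8798.1 and 14077 in iBAT, and adipocyte markers to between 17197 and 34042 in iWAT. The iWAT libraries LFABP-/- 2, 3 and 4 and WT 3 and 4 carried high lymphocyte markers (sums 713.2 to 2636.1, against 21.9 to 47.1 in the other 5), with Ighm at 0 in every library. The meaning of the library name prefixes G30 and G32 is not given. By the iBAT and liver names they held 2 and 3 LFABP-/- and 3 and 2 WT mice, and these prefixes were used for all tissues. The iWAT names differ. There all WT libraries carry G30, also replicates 4 and 5, which carry G32 in iBAT and liver. LFABP-/- iWAT replicate 1 carries G30, replicate 2 G3, and replicates 3, 4 and 5 G32. By these names G32 occurs only in LFABP-/- iWAT, so its part cannot be separated from that of genotype. In bulk tissue, fewer cells of a type and less RNA per cell cannot be told apart.

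Levels of the members differed between the tissues. Mitochondrially encoded genes held 53.3% to 58.8% of the value in LFABP-/- and 54.4% to 60.1% in WT iBAT. In iWAT they held 13.2% to 20.5% in LFABP-/- and 13.3% to 20.6% in WT libraries. On a scale with a fixed sum this leaves less for every other gene in iBAT. Liver was the main site of Agt, at 679 ± 93.1 in LFABP-/- and 650 ± 68.6 in WT livers (mean ± SD, n = 5 each), and the ranges of the genotypes overlapped. In iWAT it stood at 21.8 ± 5.31 in LFABP-/- and 58.2 ± 17.1 in WT mice, and in iBAT at 6.54 ± 4.00 in LFABP-/- and 1.56 ± 0.961 in WT mice. The ranges of Agt in the 3 tissues did not overlap, in either genotype, while the genotypes overlapped within liver and within iBAT. Agtr1a followed the same order, with 28.8 ± 2.93 in LFABP-/- and 43.1 ± 4.54 in WT livers, 7.84 ± 0.764 in LFABP-/- and 13.9 ± 2.20 in WT iWAT, and 2.36 ± 0.602 in LFABP-/- and 2.34 ± 0.358 in WT iBAT.

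Ace ran the other way and was a transcript of fat. It averaged 52.0 ± 12.8 in LFABP-/- and 84.2 ± 11.3 in WT iWAT, 5.54 ± 0.472 in LFABP-/- and 9.40 ± 2.38 in WT iBAT, and it reached at most 1.1 in any liver. Anpep was highest in liver, at 63.8 ± 5.11 in LFABP-/- and 81.9 ± 3.35 in WT mice, next in iWAT, at 25.2 ± 5.59 in LFABP-/- and 41.1 ± 6.85 in WT mice, and lowest in iBAT, at 3.32 ± 0.835 in LFABP-/- and 3.50 ± 0.935 in WT mice. Enpep averaged 23.8 ± 3.53 in LFABP-/- and 34.1 ± 7.51 in WT iWAT, and 36.0 ± 8.54 in LFABP-/- and 32.02 ± 7.38 in WT livers, and these 4 groups overlapped in a chain. Agtrap and Atp6ap2 were highest in iWAT, where Agtrap averaged 18.96 ± 3.48 in LFABP-/- and 20.2 ± 2.98 in WT mice and Atp6ap2 54.6 ± 4.33 in LFABP-/- and 58.3 ± 10.2 in WT mice. Renin itself was close to nothing: Ren1 was listed at 0.0 in all 10 iBAT libraries and 9 of 10 iWAT libraries, at 0.1 in WT iWAT 2, and at 0.1 to 0.4 in LFABP-/- and 0.1 to 0.3 in WT livers. It was below the level needed for a test in every tissue, as was Ace in liver.

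Differences between tissues were tested in 1 limma fit of the 30 libraries on log2(value + 0.5), with the mouse as a random block and p adjusted over 13925 genes by Benjamini and Hochberg. Calls were made where the adjusted p was below 0.1. All 7 members tested were called higher in iWAT than in iBAT, where 85.5% of all genes were called higher, so the count says little about the members. The log2 difference, iWAT minus iBAT averaged over genotypes, was 3.39 (SE 0.24) for Agt, 3.10 (SE 0.12) for Ace, 3.07 (SE 0.11) for Anpep and 1.48 (SE 0.10) for Agtrap, and the median of all genes was 1.38. Against liver, iWAT was higher for Ace (5.88, SE 0.12), Agtrap (2.41, SE 0.10) and Atp6ap2 (1.01, SE 0.09) and lower for Agt (-4.23, SE 0.24), Agtr1a (-1.71, SE 0.09), Anpep (-1.17, SE 0.11) and Enpep (-0.24, SE 0.13, adjusted p = 0.0746 from limma), where 80.8% of all genes were called higher and 14% lower around a median of 1.26. For Enpep the difference was -0.56 within LFABP-/- mice (adjusted p = 0.00456 from limma) and 0.09 within WT mice (adjusted p = 0.647), the test between these missed the threshold (adjusted p = 0.200), and the averaged call was lost without LFABP-/- replicate 3 or 4 or WT replicate 1 or 4 (adjusted p = 0.120 to 0.338) and without the 4 LFABP-/- fat libraries high in Fabp1 (-0.23, adjusted p = 0.108). Median-ratio scaling took that median to -0.03 and turned Atp6ap2 to -0.34, lower in iWAT than in liver. In iBAT against liver, Ace (2.78, SE 0.12) and Agtrap (0.93, SE 0.10) were higher and the other 5 tested were lower, with Agt at -7.63 (SE 0.24) and Anpep at -4.25 (SE 0.11), against 38.1% of all genes higher and 42.7% lower.

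**Figure D1:**
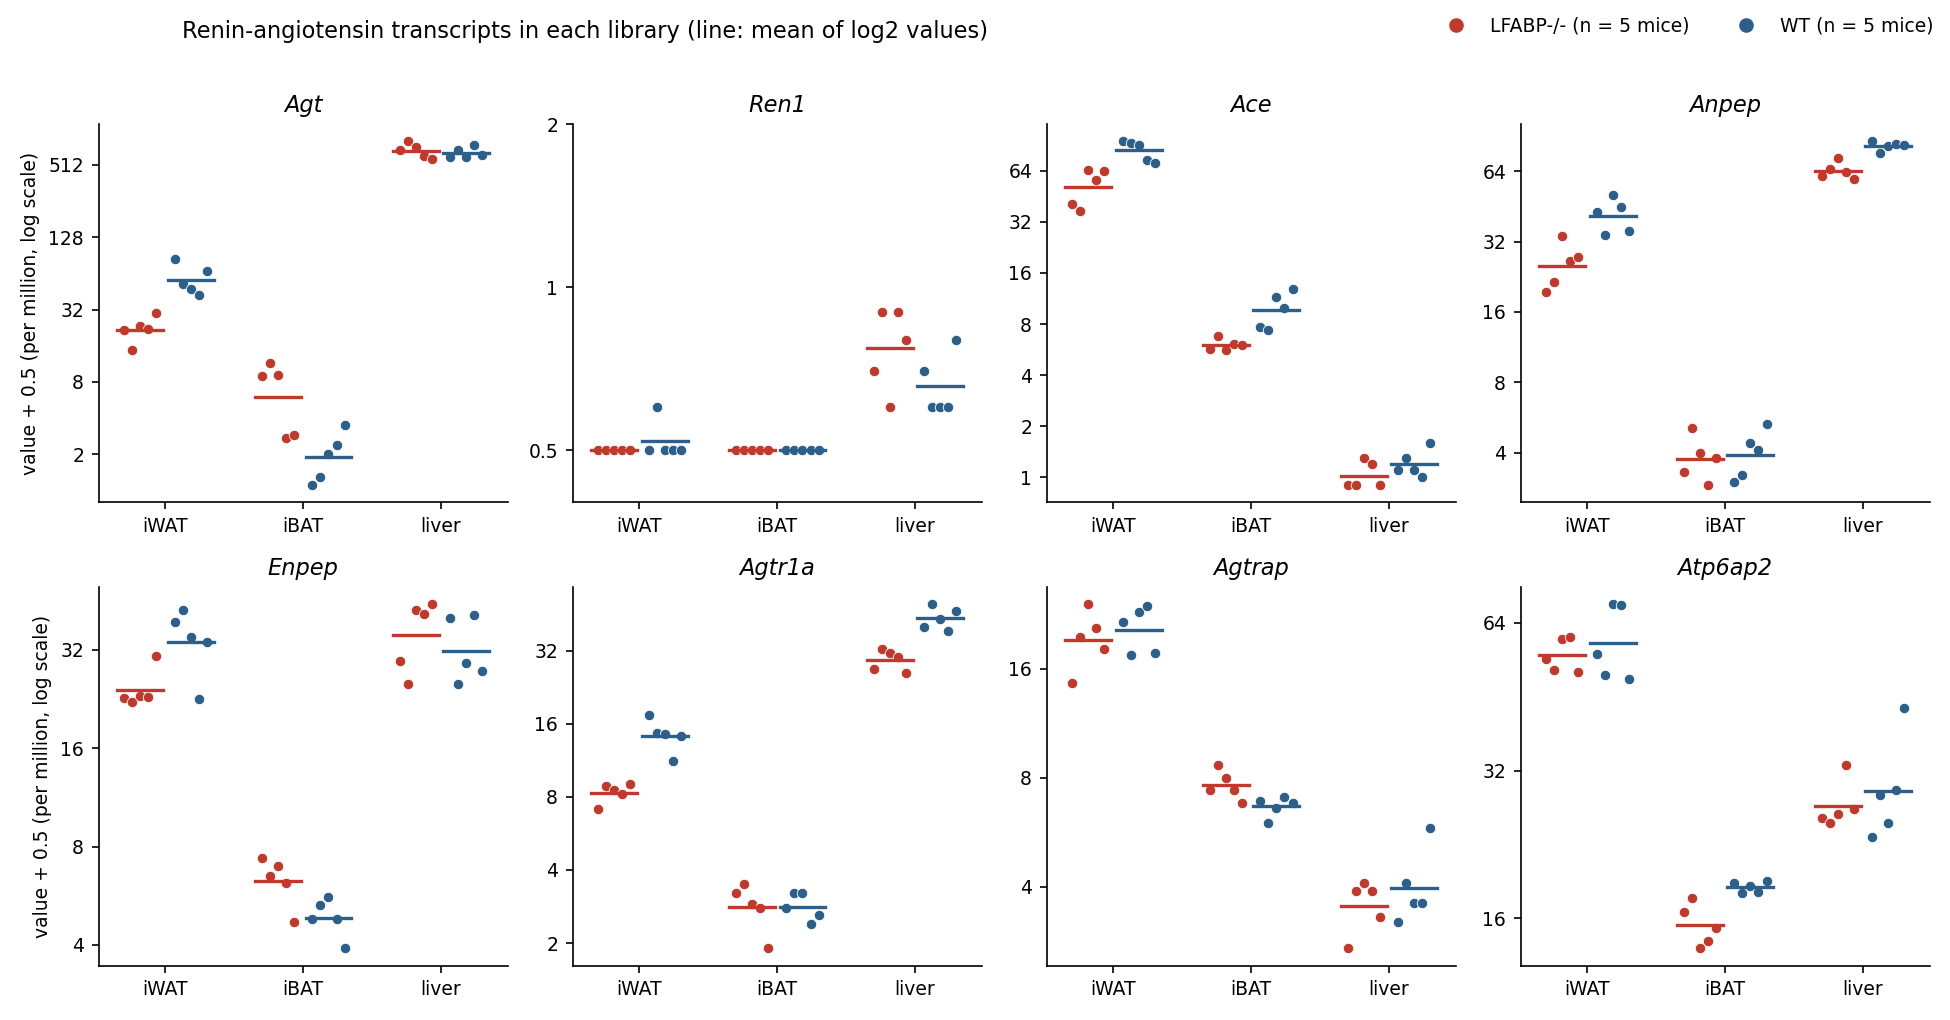
Level of each member in the 30 libraries, as value + 0.5 on the TPM scale, on a log axis, by tissue, with LFABP-/- mice (red) left of WT mice (blue). Each point is 1 mouse and each line the mean of the log2 values. Agt spans 0.6 in a WT iBAT library to 805.6 in a LFABP-/- liver, while Ren1 never passes 0.4.

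In iWAT, Agt, the precursor, and Agtr1a, the receptor, fell in LFABP-/- mice, to 0.374 and 0.564 of the WT mean. Ace, Anpep and Enpep had lower means as well but did not pass the test. Genotypes were compared within each tissue with limma on log2(value + 0.5), two-sided, over genes whose mean reached 1, and for single members by exact permutation of the group means (two-sided), which can give no p below 0.0079. Of 7 members tested in iWAT, 2 were called lower and 0 higher, against 0.77% of the 14668 genes tested called lower and 0.682% called higher. All 7 log2 fold changes were negative (median -0.71), against a median of 0.05 over all genes. The study had itself named Agt, Agtr1a, Ace, Anpep and Enpep from these libraries, so the direction of this group is not independent evidence.

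Agt (ENSMUSG00000031980, chromosome 8 of GRCm38 from 124556534 to 124569706, minus strand) had values of 21, 14.3, 22.9, 21.5 and 29.2 in LFABP-/- iWAT, against 84, 51.9, 47, 41.7 and 66.5 in WT iWAT. The groups were apart, the highest LFABP-/- mouse below the lowest WT mouse. The mean of LFABP-/- mice was 0.374 of that of WT mice, a log2 fold change of -1.39 (SE 0.22, adjusted p = 0.0291 from limma, exact permutation p = 0.0079, n = 5 each). Without the library labelled LFABP-/- replicate 1, the first value above, it was -1.38 (adjusted p = 0.0738). Without WT replicate 5 the adjusted p was 0.101, and a covariate of skeletal muscle markers took it to 0.1002, so both missed the threshold.

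The angiotensin II receptor fell with its ligand's precursor. Agtr1a (ENSMUSG00000049115, chromosome 13 from 30336441 to 30382867, plus strand) had values of 6.6, 8.4, 8.0, 7.7 and 8.5 in LFABP-/- iWAT, against 16.9, 14.2, 14, 10.7 and 13.7 in WT iWAT. Again no LFABP-/- library reached the lowest WT library. The log2 fold change was -0.78 (SE 0.13, adjusted p = 0.0350 from limma, exact permutation p = 0.0079, n = 5 each). Without the library labelled LFABP-/- replicate 1 it was -0.72 (adjusted p = 0.0769). The call was lost without WT replicate 2 (adjusted p = 0.115), WT replicate 3 (0.12) or WT replicate 5 (0.118), and with the muscle covariate (0.1002).

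Ace and Anpep had fold changes of the same size that did not pass the test over all genes. Ace (ENSMUSG00000020681, chromosome 11 from 105967945 to 105989964) had 40.3, 36.7, 63.9, 55.9 and 63.1 in LFABP-/- iWAT, against 94.6, 92, 90.4, 73.5 and 70.6 in WT iWAT (log2 fold change -0.72, SE 0.18, adjusted p = 0.123 from limma, exact permutation p = 0.0079, n = 5 each). For Anpep (ENSMUSG00000039062, chromosome 7 from 79821803 to 79861059) the values were 19, 20.9, 33.2, 26 and 27 in LFABP-/- iWAT, against 42.5, 33.7, 50.1, 44.5 and 34.9 in WT iWAT (-0.71, SE 0.17, adjusted p = 0.111, exact permutation p = 0.0079, n = 5 each). Neither gene had an overlap between genotypes. Without the library labelled LFABP-/- replicate 1 the log2 fold change was -0.64 for Ace (adjusted p = 0.229) and -0.61 for Anpep (0.190). With Agt and Agtr1a this made 4 of the 7 members tested with every LFABP-/- library below every WT library, against 1.66% of all genes. The study had named these 4 from the same libraries, so this share is not independent evidence either. Anpep was called under 8 of 16 other settings and Ace under 5 of 16, among them the fit of all 30 libraries (adjusted p = 0.00763 for Anpep and 0.0145 for Ace). Over all genes that fit called 414 higher and 391 lower, in place of 100 and 113. With single libraries left out, Anpep was called in 1 of 10 fits and Ace in 0 of 10.

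Enpep, which removes the first residue of angiotensin II, had 22.3, 21.6, 22.7, 22.4 and 30.1 in LFABP-/- iWAT, against 38.6, 41.9, 34.5, 22.1 and 33.3 in WT iWAT. A single WT library, replicate 4, lay among the LFABP-/- values. The log2 fold change was -0.49 (95% interval -0.87 to -0.11, adjusted p = 0.297 from limma, exact permutation p = 0.0397, n = 5 each), and it was -0.63 without WT replicate 4 (adjusted p = 0.0574) and -0.47 without the library labelled LFABP-/- replicate 1 (0.437). For Agtrap the log2 fold change was -0.10 (95% interval -0.43 to 0.24) and for Atp6ap2 -0.08 (-0.35 to 0.19), with adjusted p of 0.952 for each. Their groups overlapped throughout.

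**Figure D2:**
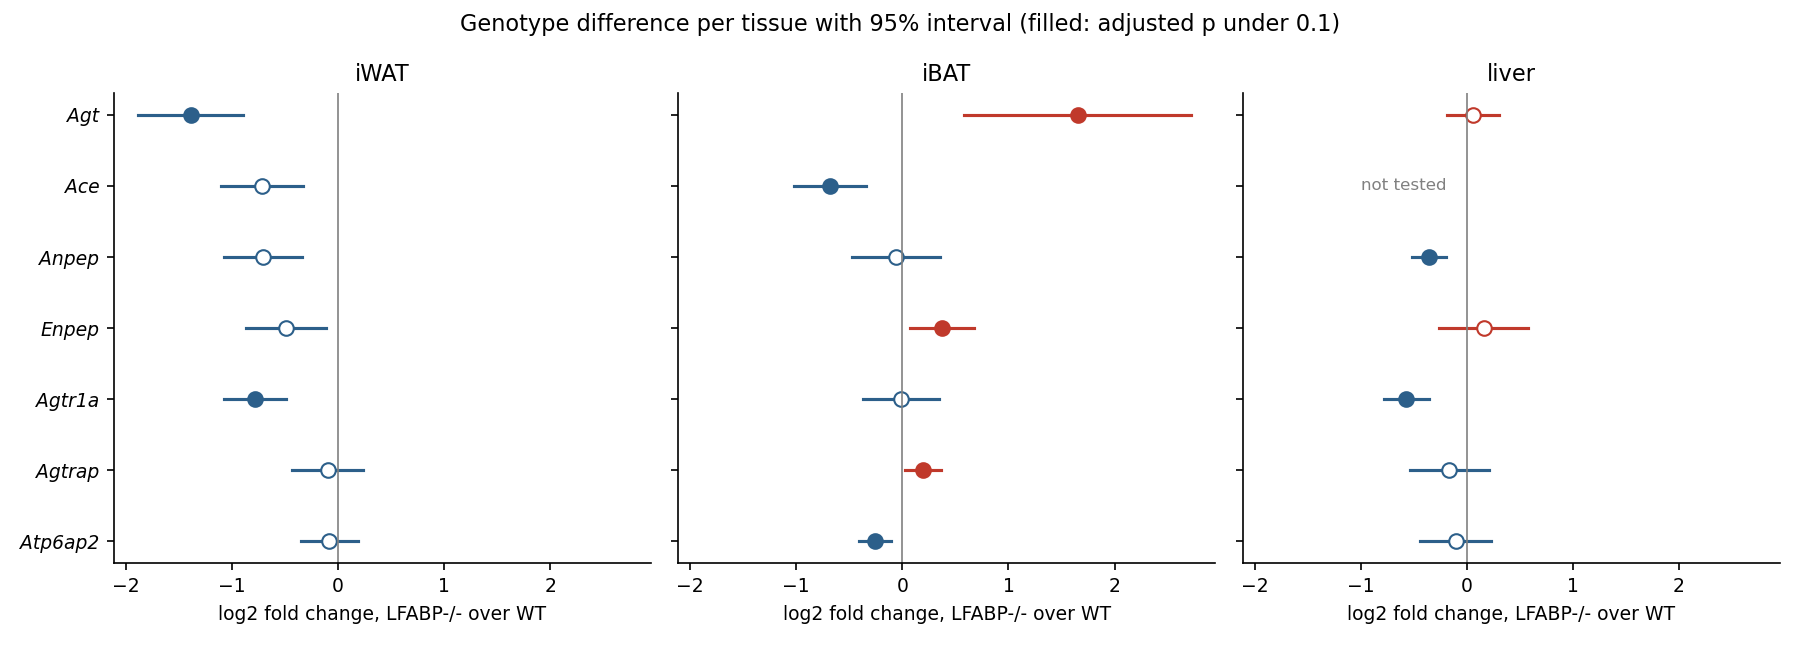
Log2 fold change of each tested member, LFABP-/- over WT, in iWAT, iBAT and liver, with its 95% interval from limma. Filled points have an adjusted p under 0.1. Agt lies at -1.39 in iWAT, at 1.65 in iBAT and at 0.06 in liver.

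The differences in iWAT were measured again within the libraries high and low in lymphocyte markers. Among the 5 libraries high in lymphocyte markers, Agt averaged 19.6 in 3 LFABP-/- mice and 44.4 in 2 WT mice, a log2 difference of -1.19. In the 5 low libraries it averaged 25.1 in 2 LFABP-/- mice and 67.5 in 3 WT mice (-1.40). In the high and the low libraries the log2 differences were -0.58 and -0.94 for Agtr1a, -0.68 and -0.75 for Ace, and -0.84 and -0.69 for Anpep. These 4 genes had no overlap over all iWAT libraries, so they cannot overlap within a part of them, and that separation adds no evidence. By the prefixes of the iBAT and liver names, the log2 difference was more negative in G30 than in G32 mice for every member tested. It was -1.25 and -0.24 for Ace, -1.04 and -0.46 for Anpep, -1.74 and -1.10 for Agt, and -0.96 and -0.56 for Agtr1a. For Enpep it was -0.79 and -0.13, for Agtrap -0.28 and 0.02, and for Atp6ap2 -0.13 and -0.05. That contrast between prefixes was not tested. In a fit of the 5 low libraries alone, limma called 0 members (adjusted p = 0.222 for Agt and 0.237 for Agtr1a), while 5 had an unadjusted p under 0.05. Over all 13880 genes tested, that fit called 5 higher and 1 lower, so the count of 0 is not a result about the members.

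Markers of some other cells differed with the genotype in iWAT. Transcripts of stromal progenitors (Pdgfra, Dpp4, Pi16, Cd34, Ly6a, Dcn, Lum and Col1a1) summed to between 905.6 and 1157.9 in LFABP-/- libraries and between 1240.6 and 2103.3 in WT libraries, with a lower mean in LFABP-/- mice for 8 of 8 and none at 0. Macrophage markers had a lower mean for 7 of 8 (780.3 to 1522.8 in LFABP-/- and 896.5 to 2428.2 in WT libraries). Endothelial markers were lower for 4 of 8 (657.9 to 841.5 in LFABP-/- and 566.3 to 936.1 in WT libraries) and adipocyte markers for 6 of 8 (19298 to 31725 in LFABP-/- and 17197 to 34042 in WT libraries). Skeletal muscle markers had a lower mean for 0 of 12 (48.7 to 5616.7 in LFABP-/- and 37.1 to 827.4 in WT libraries), but their medians went the other way (84.8 and 123.6). The sum of 5616.7 was that of LFABP-/- replicate 4 alone. Other lists had higher means in LFABP-/- iWAT. These were brown adipocyte markers for 6 of 6 (109.2 to 1797.9 in LFABP-/- and 41.2 to 156.7 in WT libraries), mural cell markers for 7 of 9 (644.7 to 845.2 in LFABP-/- and 418.3 to 917.9 in WT libraries, medians 704.2 and 515.7), and hepatocyte markers for 12 of 12 (111.3 to 2659.5 in LFABP-/- and 197 to 615.2 in WT libraries, medians 162.2 and 365.4), with Cyp3a11 at 0 in some libraries of both genotypes. The part of these cells in the values of Agt, Agtr1a, Ace, Anpep and Enpep was not tested, beyond 4 settings. These were covariates of muscle, lymphocyte or hepatocyte markers and the subtraction of a hepatocyte share given below. With the hepatocyte covariate, 83 of all genes were called higher and 91 lower in iWAT.

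**Figure D3:**
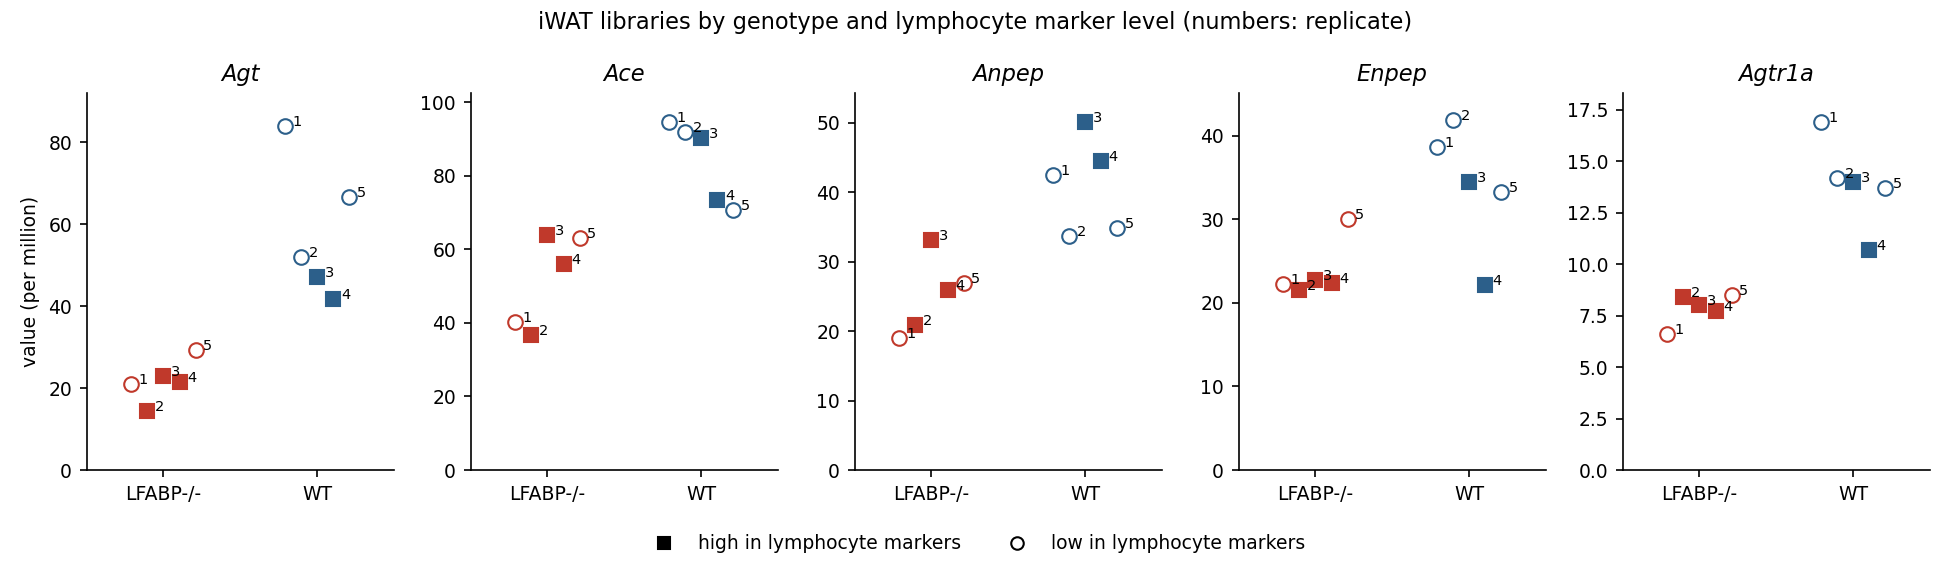
Values of 5 members (TPM scale) in the iWAT libraries, LFABP-/- left of WT, each point numbered by its replicate. Filled squares are the libraries high in lymphocyte markers and open circles the others. For Agt all LFABP-/- points, at 14.3 to 29.2, lie below all WT points, at 41.7 to 84.

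Brown fat had a mixed pattern. Of 7 members tested in iBAT, 3 were called higher in LFABP-/- mice (Agt, Agtrap and Enpep) and 2 lower (Ace and Atp6ap2), against 22.3% of the 11614 genes tested called higher and 25.5% lower, so a count of 5 of 7 is not a result about the members beside 47.8% of all genes called in either direction. Their median log2 fold change was -0.01 and that of all genes -0.03.

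The converting enzyme had the smallest adjusted p of the members in iBAT. Ace had 5.2, 6.3, 5.1, 5.6 and 5.5 in LFABP-/- iBAT, against 7.2, 6.9, 11, 9.5 and 12.4 in WT iBAT. No library of one genotype reached the other (log2 fold change -0.68, SE 0.15, adjusted p = 0.00581 from limma, exact permutation p = 0.0079, n = 5 each). Atp6ap2 (ENSMUSG00000031007, X chromosome from 12587801 to 12617049) also had no overlap, with 16, 17.1, 13.4, 13.9 and 14.8 in LFABP-/- iBAT, against 18.4, 17.5, 18.1, 17.6 and 18.6 in WT iBAT (-0.26, SE 0.07, adjusted p = 0.0136). These are 2 of 7 members below every WT library, against 14.3% of all genes. Both calls held with each library left out in turn. Without the libraries labelled LFABP-/- replicates 3, 4 and 5, which were high in Fabp1, Ace was called (-0.64, adjusted p = 0.0768) and Atp6ap2 was not (-0.12, adjusted p = 0.207), with 2 LFABP-/- libraries left. The call of Atp6ap2 was lost in the fit of all 30 libraries (adjusted p = 0.133). With hepatocyte markers as a covariate neither Ace (-0.81, adjusted p = 0.207) nor Atp6ap2 (-0.38, adjusted p = 0.190) was called. The sums of these markers were 216.6 to 2192.6 in LFABP-/- and 9.5 to 116.0 in WT iBAT, with no overlap. This covariate therefore cannot be separated from genotype. Over all genes it called 106 higher and 300 lower, in place of 2595 and 2961.

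Smaller increases were found for Enpep (ENSMUSG00000028024, chromosome 3 from 129269175 to 129332720) and Agtrap (ENSMUSG00000029007, chromosome 4 from 148077061 to 148088031). Enpep had 6.9, 6.0, 6.5, 5.7 and 4.2 in LFABP-/- iBAT, against 4.3, 4.8, 5.1, 4.3 and 3.4 in WT iBAT, and only LFABP-/- replicate 5 lay within the WT range (log2 fold change 0.38, SE 0.13, adjusted p = 0.0477 from limma). Agtrap had 6.9, 8.2, 7.5, 6.9 and 6.3 in LFABP-/- iBAT, against 6.4, 5.5, 6.1, 6.6 and 6.3 in WT iBAT (0.19, SE 0.08, adjusted p = 0.0671). The call of Enpep was lost without LFABP-/- replicate 1 (adjusted p = 0.105) or 3 (0.104), and that of Agtrap without LFABP-/- replicate 2 (0.142) or 3 (0.136) or WT replicate 2 (0.144) or 3 (0.116). Neither Enpep (0.128) nor Agtrap (0.365) was called in the fit of all 30 libraries, and both were called without the 3 LFABP-/- libraries high in Fabp1 (0.0342 for Enpep and 0.0817 for Agtrap). Agtr1a (log2 fold change -0.01, 95% interval -0.37 to 0.35) and Anpep (-0.06, -0.48 to 0.35) were not called in iBAT.

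Agt in iBAT moved with hepatocyte transcripts. Its values were 8.4, 11, 8.7, 2.2 and 2.4 in LFABP-/- iBAT, against 0.6, 0.8, 1.5, 1.9 and 3.0 in WT iBAT, so the first 3 LFABP-/- libraries stood above the rest and the other 2 lay within the WT range. The log2 fold change was 1.65 (SE 0.48, adjusted p = 0.0204 from limma, exact permutation p = 0.0317, n = 5 each). All 12 hepatocyte markers, such as albumin, had a higher mean in LFABP-/- iBAT, and their sums were 216.6 to 2192.6 in LFABP-/- and 9.5 to 116.0 in WT libraries, with Fgb, Cyp3a11 and Cyp2c29 at 0 in some WT libraries. Their median level was 1.135%, 1.544%, 1.358%, 0.2723% and 0.1694% of that in WT liver in LFABP-/- iBAT, against 0.003422% to 0.08327% in WT iBAT. At that share, the Agt of WT liver would amount to 7.38, 10.04, 8.83, 1.77 and 1.10 in LFABP-/- iBAT and to 0.0223 to 0.542 in WT iBAT. With this share subtracted from every gene, the log2 fold change of Agt was -0.53 (95% interval -1.49 to 0.42, adjusted p = 0.354), and with hepatocyte markers as a covariate -0.31 (adjusted p = 0.815). Both settings were chosen after seeing the data. The marker sums did not overlap between genotypes, so the covariate cannot be separated from genotype. The subtraction used WT liver as its reference. LFABP-/- livers had a share of 77.4% to 95.1%, equal to 503.4 to 618.7 of Agt, beside 576.5 to 805.6 measured, so the amount subtracted is approximate. The source of the hepatocyte transcripts was not tested. Without the 3 LFABP-/- libraries high in Fabp1 the log2 fold change of Agt was 2.42 (adjusted p = 0.00706), and the 2 libraries left, replicates 1 and 2, were among the 3 with the most hepatocyte markers. After the subtraction Ace (adjusted p = 0.00557), Atp6ap2 (0.00835), Agtrap (0.0710) and Enpep (0.0728) were still called in the same direction.

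In iWAT the Agt difference was measured again with the hepatocyte share subtracted, a setting chosen after seeing the data. There, the share of hepatocyte markers was 0.02076% to 1.858% in LFABP-/- and 0.09826% to 0.368% in WT libraries. The library labelled LFABP-/- replicate 1 held the highest share, equal to 12.1 of its 21 Agt, and in the other 9 iWAT libraries the share equalled at most 2.39. With the share subtracted, Agt remained lower in LFABP-/- iWAT (-1.62, adjusted p = 0.0572), as did Agtr1a (-0.81, adjusted p = 0.0454). The source of these hepatocyte transcripts was not tested.

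**Figure D4:**
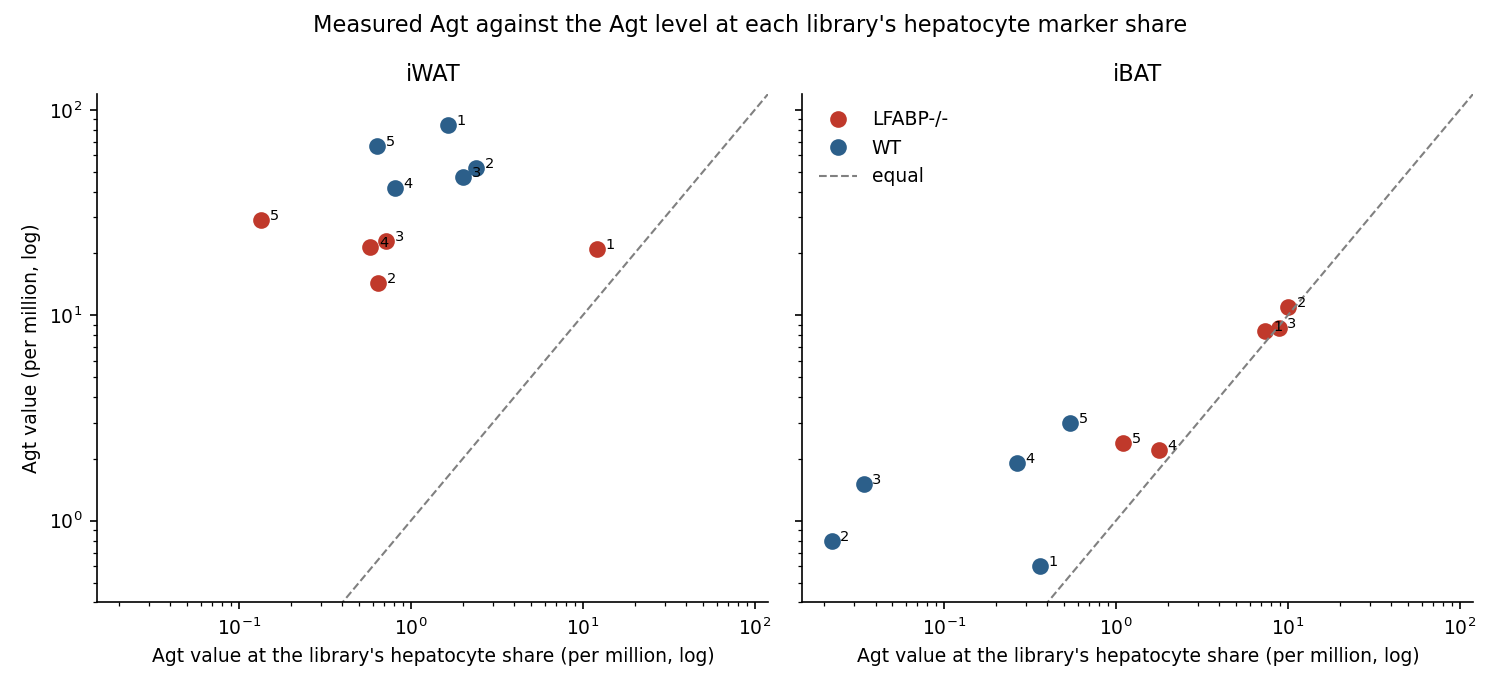
Measured Agt against the Agt that the library's hepatocyte marker share would equal, both on the TPM scale on log axes, in iWAT and iBAT, with each library numbered by its replicate (LFABP-/- red, WT blue). The dashed line marks equal values. LFABP-/- iBAT libraries 1, 2 and 3 lie close to the line, at 8.4, 11 and 8.7, while every iWAT library lies above it.

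Other cell markers in iBAT were measured beside Ace and Atp6ap2. Endothelial markers had a lower mean in LFABP-/- mice for 7 of 8 (sums 123.1 to 267.1 in LFABP-/- and 157.1 to 239.2 in WT libraries) and mural cell markers for 9 of 9 (174.4 to 404.1 in LFABP-/- and 244.5 to 701.8 in WT libraries). Skeletal muscle markers had a lower mean for 12 of 12 (257.6 to 18771 in LFABP-/- and 1622.5 to 43362 in WT libraries), but the medians of their sums went the other way (6706.2 and 6056.3). Brown adipocyte markers had a higher mean for 5 of 6 (10733 to 14077 in LFABP-/- and 8798.1 to 10902 in WT libraries). Their part in the iBAT differences was not tested.

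In liver the receptor and aminopeptidase N were lower in LFABP-/- mice, and the precursor was not called. Of 6 members tested, 2 were called lower (Agtr1a and Anpep) and 0 higher, against 13.9% of the 11629 genes tested called lower and 3.08% higher. The median log2 fold change was -0.14 over the members and -0.10 over all genes. Both genes had every LFABP-/- library below every WT library, as 8.63% of all genes did.

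Agtr1a had 26.3, 32.1, 30.9, 29.5 and 25.3 in LFABP-/- livers, against 39.6, 49.0, 42.8, 37.9 and 46.0 in WT livers. The LFABP-/- mean was 0.669 of the WT mean (log2 fold change -0.57, SE 0.10, adjusted p = 0.0117 from limma, exact permutation p = 0.0079, n = 5 each). Anpep had 60.5, 64.7, 72.1, 62.8 and 59 in LFABP-/- livers, against 85.5, 76.5, 81.5, 83.4 and 82.5 in WT livers (-0.36, SE 0.07, adjusted p = 0.0179). Both calls held with each library left out. With median-ratio scaling, under which the median of all genes moved to 0.00 and the calls over all genes to 1158 higher and 834 lower in place of 358 and 1611, Agtr1a (-0.46, adjusted p = 0.0173) and Anpep (-0.24, adjusted p = 0.0906) were called too. In the fit of 30 libraries Anpep was not called (adjusted p = 0.188).

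Hepatic Agt had 685.5, 805.6, 726.7, 602.9 and 576.5 in LFABP-/- livers, against 593.5, 685.4, 598.9, 754.3 and 620.0 in WT livers, and the groups overlapped. The log2 fold change was 0.06 with a 95% interval of -0.18 to 0.30 (adjusted p = 0.763 from limma). Enpep (0.16, -0.26 to 0.58), Agtrap (-0.17, -0.54 to 0.21) and Atp6ap2 (-0.10, -0.44 to 0.23) were not called either, and Ace, at 0.4 to 0.8 in LFABP-/- and 0.5 to 1.1 in WT livers, was not tested. Hepatocyte markers summed to between 108020 and 129550 in LFABP-/- and between 129780 and 155600 in WT livers (lower mean for 9 of 12), and mitochondrially encoded genes held 16.9% to 18.1% of the value in LFABP-/- and 12.1% to 15.1% in WT livers. The part of either in the values of Agtr1a and Anpep was not tested.

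Whether the genotype difference of a member depended on the tissue was tested in the fit of all 30 libraries. Between iWAT and iBAT, 4 of 7 members differed, all with the lower fold change in iWAT, against 5.39% of all genes in that direction. They were Agt (difference of log2 fold changes -3.04, SE 0.47, adjusted p = 0.000296 from limma), Enpep (-0.86, SE 0.25, adjusted p = 0.0338), Agtr1a (-0.77, SE 0.19, adjusted p = 0.0125) and Anpep (-0.64, SE 0.22, adjusted p = 0.0748). The study had named these 4 genes as lower from the same iWAT libraries, and their fold change in iWAT enters this contrast. The count beside the share of all genes is therefore not independent evidence. Without the 4 LFABP-/- fat libraries high in Fabp1, Anpep was not called (-0.67, adjusted p = 0.101) and the other 3 were. For Ace, lower in both fat depots, the difference was -0.03 (95% interval -0.53 to 0.46). Between iBAT and liver, Agt (1.59, SE 0.47, adjusted p = 0.0255) and Agtr1a (0.56, SE 0.19, adjusted p = 0.0511) had the higher fold change in iBAT, against 11.5% of all genes. The values of Agt in these contrasts include the hepatocyte share of LFABP-/- iBAT given above. Between iWAT and liver 0 of 7 were called, with 2 at an unadjusted p under 0.05 (Agt -1.44, adjusted p = 0.115, and Enpep -0.65, adjusted p = 0.200), against 3.6% of all genes called in either direction. Without those 4 libraries Agt was called there (-1.44, adjusted p = 0.0368).

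Other enzymes and receptors of angiotensin peptides were not called in iWAT or liver. Of 17 such genes, 12 passed the filter on low values in iWAT, 11 in iBAT and 9 in liver. In iWAT and in liver 0 were called by limma at an adjusted p under 0.1, and 0 had an unadjusted p under 0.05, beside 0.682% of all genes called higher and 0.77% lower in iWAT and 3.08% higher and 13.9% lower in liver. At these rates a count of 0 among 12 or 9 genes is not a result about the list. The receptors of the opposing arm of the system were near the floor of the table: Mas1, the receptor of angiotensin 1-7, was at most 0.4 in any library, and the type 2 receptor Agtr2 was listed at 0.0 throughout. Agtr1b, the other mouse AT1 receptor gene, reached 0.1 at most. Mast cell chymase (Cma1), which can form angiotensin II without Ace, averaged 22.7 in LFABP-/- and 34.3 in WT iWAT (log2 fold change -0.51, adjusted p = 0.674), and Cpa3, a mast cell carboxypeptidase, differed by -0.56 (adjusted p = 0.699).

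In iBAT 4 peptidases of this list were higher in LFABP-/- mice and 1 lower, of 11 tested, a share near that of all genes (22.3% higher and 25.5% lower), so the values below describe single genes and not the list. Nln (neurolysin), which cuts angiotensin I, averaged 9.42 in LFABP-/- and 5.52 in WT iBAT (log2 fold change 0.70, SE 0.13, adjusted p = 0.00248 from limma). Thop1, a related endopeptidase (0.28, adjusted p = 0.00900), Prep, a prolyl endopeptidase (0.21, adjusted p = 0.0271), and Rnpep, aminopeptidase B (0.22, adjusted p = 0.0453), rose too. Dpp3, which degrades angiotensin II from its end, fell (-0.33, adjusted p = 0.0127). Of 6 kinin genes, 2 passed the filter in iBAT and 3 each in iWAT and liver, where limma called 0 (1 at an unadjusted p under 0.05 in iWAT and 0 in liver). Over all genes 0.682% were called higher and 0.77% lower in iWAT, and 3.08% higher and 13.9% lower in liver. At these rates a count of 0 among 3 genes is not a result about the list. The kininogens Kng1 and Kng2, precursors of bradykinin, a peptide that Ace inactivates, were both higher in LFABP-/- iBAT. Kng1, a liver gene, averaged 10.5 in LFABP-/- and 0.440 in WT iBAT (3.23, adjusted p = 0.00289) beside the hepatocyte markers above. With these markers as a covariate its log2 fold change was -0.0021 (adjusted p = 0.998), but that covariate cannot be separated from genotype in iBAT. Kng2 averaged 87.7 in LFABP-/- and 64.8 in WT iBAT (0.46, adjusted p = 0.0393) and was called again after the liver share was subtracted (0.43, adjusted p = 0.0502).

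Genes of AT1 receptor signalling were not called by limma in iWAT (0 of 13, with 2 at an unadjusted p under 0.05), where 0.682% of all genes were called higher and 0.77% lower. In iBAT 6 of 12 were called, beside 47.8% of all genes. Neither count is a result about the list. Of the 6 called in iBAT, Plcb1, a phospholipase C, was higher (log2 fold change 0.32, adjusted p = 0.0370 from limma), and 5 were lower: the arrestins Arrb1 (-0.31, adjusted p = 0.0525) and Arrb2 (-0.22, 0.0941), the receptor kinase Grk2 (-0.19, 0.0167), the G protein regulator Rgs5 of mural cells (-0.37, 0.00225) and Nr3c2, the mineralocorticoid receptor for aldosterone (-1.15, 0.000777). Nr3c2 averaged 1.06 in LFABP-/- and 2.92 in WT iBAT. It was lower in LFABP-/- livers too, at 3.56 in LFABP-/- and 5.64 in WT mice (-0.65, adjusted p = 0.0482), as was the G protein subunit Gna11 (-0.36, adjusted p = 0.0151). Nr3c2 and Gna11 were the 2 called of 13 tested in liver, beside 3.08% of all genes called higher and 13.9% lower. That count is not a result about the list either. The log2 fold change of Nr3c2 in iWAT was -0.29 (adjusted p = 0.612).

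Among 8 genes listed as linked to the regulation of Agt, not all of them transcription factors, Esr1, the estrogen receptor, was lower in both fat depots. It averaged 5.14 in LFABP-/- and 10.9 in WT iWAT (log2 fold change -1.01, SE 0.18, adjusted p = 0.0410 from limma), where it was the 1 called of 8 tested, against 0.77% of all genes called lower, and 0.820 in LFABP-/- and 2.34 in WT iBAT (-1.08, SE 0.16, adjusted p = 0.000812). Stromal progenitor markers, whose part was not tested, were lower beside it in iWAT as given above, and in iBAT had a lower mean for 7 of 8 (sums 103.4 to 164.0 in LFABP-/- and 128.4 to 225.2 in WT libraries). In iBAT 5 of the 8 were called, 2 higher and 3 lower, beside 22.3% of all genes called higher and 25.5% lower. Nr3c1, the glucocorticoid receptor (-0.28, adjusted p = 0.0274), and Nr1h3, a liver X receptor (-0.25, adjusted p = 0.0113), fell there as well, while Cebpb, a factor of the acute phase response, rose (0.74, adjusted p = 0.00521), and so did Hnf4a (2.21, adjusted p = 0.00809), a factor of hepatocytes that averaged 3.06 in LFABP-/- and 0.10 in WT iBAT. Cebpb was also higher in LFABP-/- livers, at 749 in LFABP-/- and 544 in WT mice (0.44, adjusted p = 0.0485).

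**Figure D5:**
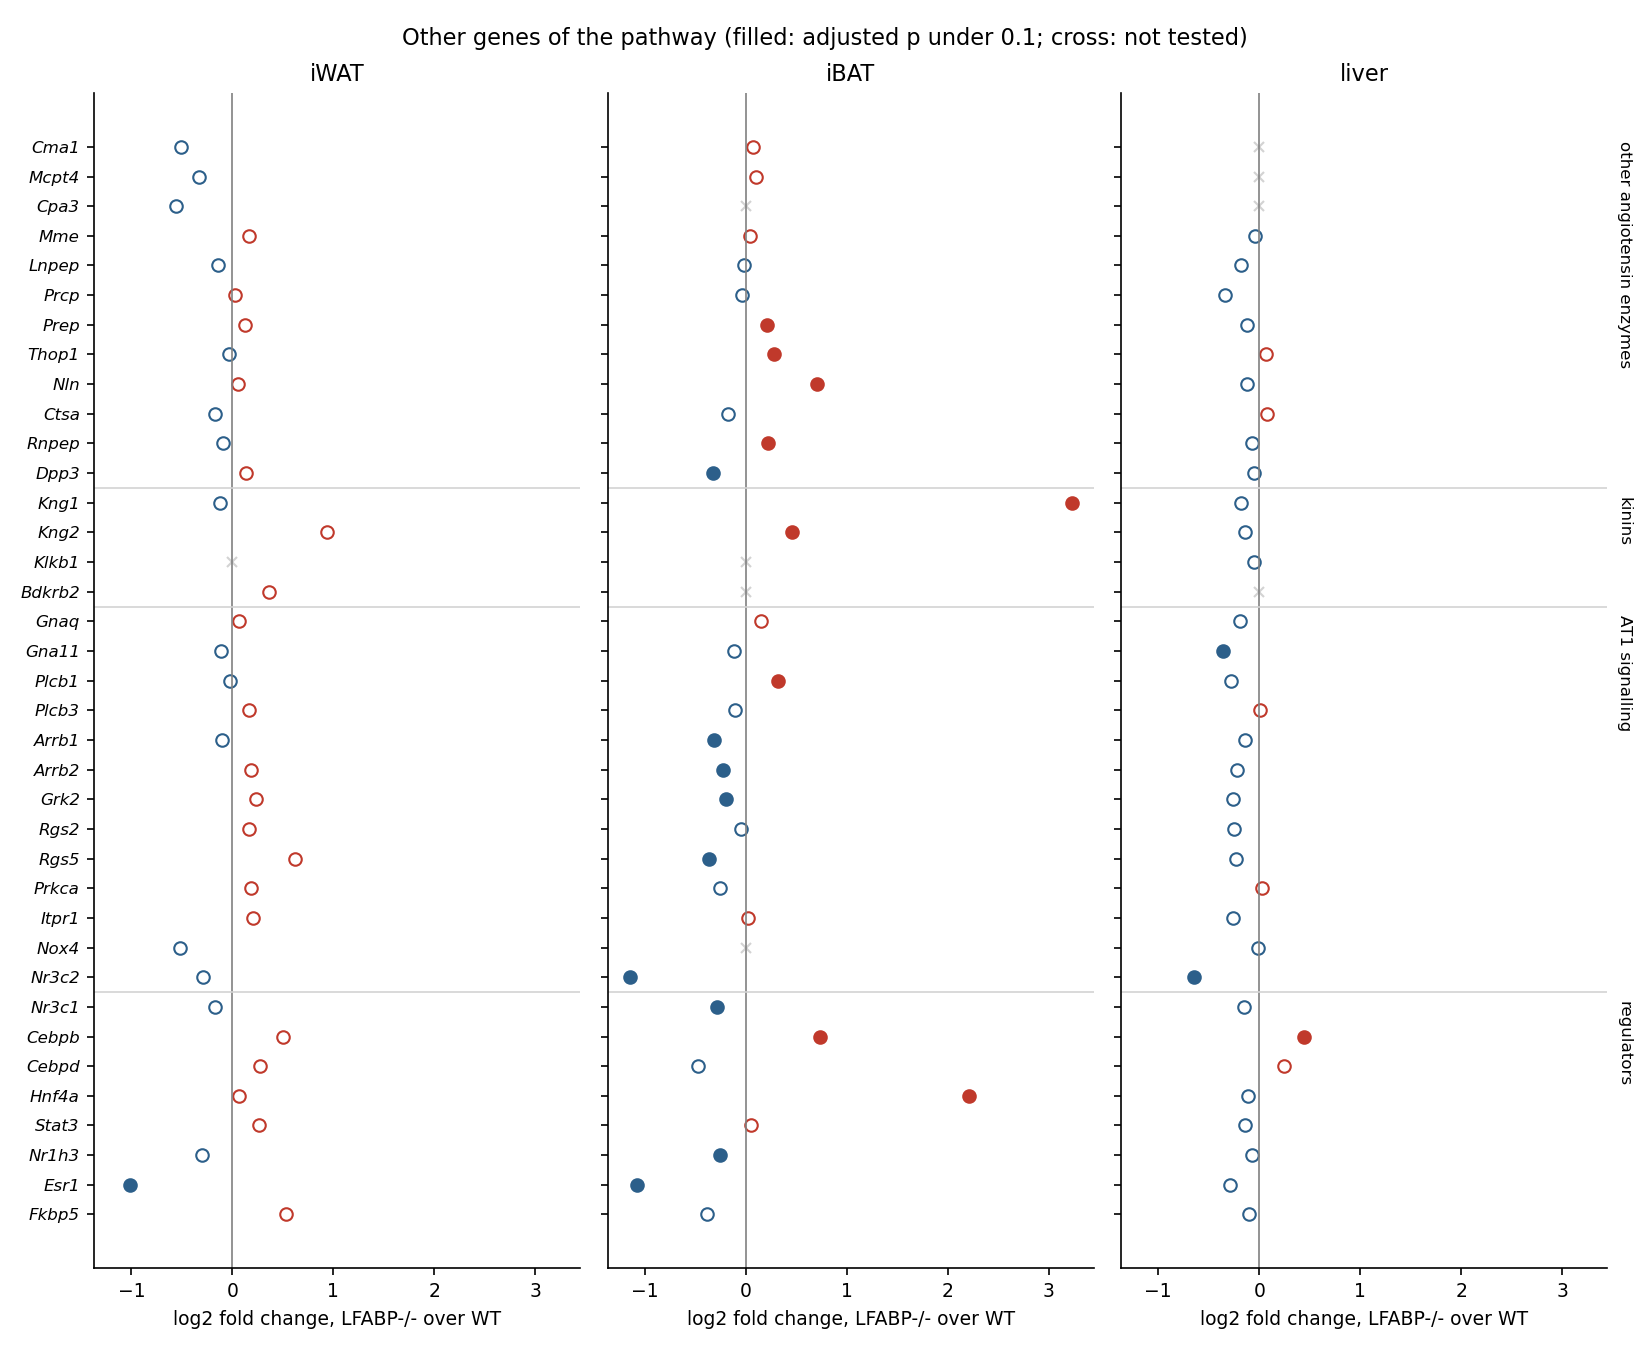
Log2 fold change, LFABP-/- over WT, of the other pathway genes in iWAT, iBAT and liver, grouped as angiotensin enzymes, kinins, AT1 signalling and regulators. Filled points have an adjusted p under 0.1 and crosses at 0 mark genes below the filter in that tissue. Esr1 is filled at -1.01 in iWAT and -1.08 in iBAT, and the farthest point is Kng1 in iBAT at 3.23.

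The genes most like Agt and Agtr1a over the 30 libraries were found among 7081 genes with a group mean above 20, by Pearson correlation of log2(value + 0.5). Among the closest to Agt were Slc22a18 (r = 0.987) and Ttc39c (0.986), and the closest to Agtr1a were Evi5 (0.991), Gne, an enzyme of sialic acid synthesis (0.988), and Acsm5 (0.986). These values are carried by the differences between tissues, which all libraries of a tissue share. Once the mean of each of the 6 groups was removed, the closest to Agt were Igfbp4, a binding protein of insulin-like growth factors (0.878), and Rnase4 (0.805), and the closest to Agtr1a were Arhgef10 (0.764), Wwtr1 (0.757) and Eng, an endothelial receptor of the transforming growth factor family (0.725). Among the members, the deviations in the 10 iWAT libraries were closest for Agtrap with Anpep (0.870) and for Agtr1a with Enpep (0.760), and that of Agt with Agtr1a was 0.530. These correlations are descriptions over libraries that share mice and tissue composition.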

How the data were processed

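RNA of iWAT, iBAT and liver from 5 LFABP-/- and 5 WT mice was selected for poly(A) tails, and single reads were mapped by the authors in CLC Genomics Workbench to GRCm38 with Ensembl gene models. The deposited table holds 1 value per gene and library that the authors call RPKM and that is on the TPM scale, since each library sums to between 999967.3 and 999996.4. Values have 1 decimal. Reads per value are not given, so precision rests on the spread between mice, and 0 value columns were left unused.

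Per tissue, limma 3.58.1 in R 4.3.3 (eBayes with trend) was run on log2(value + 0.5) of genes averaging 1 or more, since values of this unit do not suit count tests. A joint fit of the 30 libraries treated mouse as a random effect (statmod 1.5.0, consensus correlation -0.016). P was adjusted by Benjamini and Hochberg over all genes tested and called under 0.1. A fold change on this scale understates the change of low genes. Procedures were tested on simulated data.

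The members and lists were chosen with earlier results of these data known, and the study had named several of the members from the iWAT libraries. Named genes were all members, the called genes and the receptors and proteases of fixed pathway lists, Fabp1 and the 3 genes most like Agt and Agtr1a, and a few genes that these rules would name are not reported here and were left out of the lists. The liver share of a library was the median level of 12 hepatocyte markers as a percent of the WT liver mean. Gene positions came from GENCODE M21, and promoters from RefSeq. The alternatives tried were pseudocounts of 0.1 and 1, dropping the filter or setting it at 20, median-ratio scaling, rescaling without mitochondrial and the 10 most abundant genes, no trend, library weights, a replicate block, name prefix, marker covariates, each library left out and the libraries against their Fabp1 label left out. Replicate numbers join different animals of both genotypes and pair nothing. Tables were read in Python 3.11.15 with pandas 2.3.3, computed with NumPy 2.4.6 and drawn with matplotlib 3.10.9.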

Additional observations from a re-analysis of the deposited data

Results flagged for a closer look

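In groups of 5 mice, 6 values stood apart from the other 4 by Dixon's test (critical value 0.71), out of 51 groups tested, and chance gives about 1 in 20. They were Enpep at 30.1 in LFABP-/- iWAT replicate 5 (21.6 to 22.7 in the others), Atp6ap2 at 32.3 in LFABP-/- liver replicate 4, and Ren1 at 0.1 in WT iWAT replicate 2, where the others are listed at 0.0. For Fabp1, the deleted gene, they were 196 in the library labelled LFABP-/- iWAT replicate 1 (0.2 to 0.9 in the others), 51.8 in LFABP-/- liver replicate 1 and 9170 in WT liver replicate 3.

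The genotype difference varied with tissue for 4 members between iWAT and iBAT, in the fit of all 30 libraries: Agt (-3.04), Enpep (-0.863), Agtr1a (-0.769) and Anpep (-0.645), each as the log2 fold change in iWAT minus that in iBAT. It also varied between iBAT and liver for Agt (1.59) and Agtr1a (0.561). Subtracting the hepatocyte share turned Agt in iBAT to -0.53, and the contrasts between tissues were not refitted with it.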

How the results depend on the processing

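Members called lower in iWAT numbered 2, and 4 when values were rescaled without mitochondrial and the 10 most abundant genes, 5 with library weights, 4 in the fit of all 30 libraries, 4 with lymphocyte markers as a covariate, 0 with skeletal muscle markers as a covariate (5 at an unadjusted p under 0.05), 0 without the 5 libraries high in lymphocyte markers, and 0 to 3 with single libraries left out (0 without WT replicate 5, 1 without WT replicate 2 or 3). In iBAT, 3 higher and 2 lower became 1 and 1 in the fit of 30 libraries and 0 and 0 with hepatocyte markers as a covariate. That covariate was chosen after seeing the data and cannot be separated from genotype in iBAT. Under it, 106 of all genes were higher and 300 lower, in place of 2595 and 2961. Without the 3 LFABP-/- iBAT libraries high in Fabp1, 3 were higher and 1 lower, and without the 4 such fat libraries 1 genotype difference varied between iWAT and liver, both settings chosen after seeing the data. Leaving out single iBAT libraries gave 1 to 3 higher (1 without LFABP-/- replicate 3) and 2 lower. In liver 2 lower became 1 in the fit of 30 libraries. Tissue differences of the genotype effect called between iWAT and liver numbered 1 with a pseudocount of 1, and 0 to 2 with single mice left out (2 without WT replicate 4), and those between iBAT and liver 1 with median-ratio scaling, 1 when rescaled, and 1 to 2 with single mice left out (1 without LFABP-/- replicate 1 or 2 or WT replicate 5). A filter at 20 left no member to test in iBAT.

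Signs turned for these log2 fold changes, none of them called except Agt and Agtrap in iBAT and Atp6ap2 between tissues. With library weights they were Agtrap in iWAT (0.18), Atp6ap2 in iWAT (0.14), Agtr1a in iBAT (0.0013), Anpep in iBAT (0.032) and Atp6ap2 in liver (0.025). Median-ratio scaling turned Agtr1a in iBAT (0.029), Atp6ap2 in liver (0.011) and Atp6ap2 between iWAT and liver (-0.34), and moved the median of all genes by over 0.1 in liver and between iWAT and the other tissues. Atp6ap2 in iWAT was 0.026 without the 5 lymphocyte-rich libraries, and Agtr1a in iBAT 0.062 with the name prefix as a term. With hepatocyte markers as a covariate Agt in iBAT was -0.31 and Agtrap -0.088, and with the liver share subtracted Agt was -0.53. Single libraries left out gave -0.18 to 0.0013 for Agtrap in iWAT, -0.090 to 0.13 for Agtr1a and -0.17 to 0.048 for Anpep in iBAT, -0.0057 to 0.11 for Agt and -0.18 to 0.036 for Atp6ap2 in liver, and for Ace between iWAT and iBAT -0.20 to 0.12. Without the LFABP-/- libraries high in Fabp1, Agtr1a (0.25) and Anpep (0.068) in iBAT and Ace between iWAT and iBAT (0.017) turned. The cause was not tested. Over the fold changes of the members, the contrasts between tissues and the counts over all genes, 1042 values were labelled the same. For a fold change or contrast this means the same direction and side of the threshold. For a count over all genes it means a size within a fixed factor of the main count. Of the fold changes and contrasts, 44 lost a call, 20 gained one and 28 changed sign, and 50 counts over all genes moved beyond that factor.

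The replicate number as a block gave 3 members lower in iWAT (Agt, adjusted p = 0.0330, Agtr1a, 0.0753, and Anpep, 0.0680), 2 higher and 2 lower in iBAT, where Agtrap was not called (0.142), and 2 lower in liver. Over all genes in iWAT, 100 higher and 113 lower became 7306 and 1852 with library weights, 56 and 45 with median-ratio scaling, 414 and 391 in the fit of 30 libraries, 537 and 750 with the lymphocyte covariate, and 39 and 15 with the muscle covariate. With the block, 995 genes were called lower in liver in place of 1611. The numbers pair no animals: deviations of same-numbered libraries correlated at -0.33 to 0.67 in iWAT. Values have 1 decimal, so that members at a level of 1 or less, such as Ren1, have few distinct values.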
